A study of Mus musculus with 6 samples.

Results

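The constitutive proteasome genes of mouse were followed in organoids of small intestine treated with thyroid hormone. Members were taken by gene symbol, as every gene named Psma, Psmb, Psmc, Psmd or Psme with a number, leaving out Psmb8, Psmb9 and Psmb10, the inducible subunits of the immunoproteasome. This gave 40 of the 27179 genes listed. They comprised 16 genes of the 20S core particle (8 of the alpha ring and 8 of the beta ring) and 17 genes of the 19S regulatory particle (9 of the base and 8 of the lid). The others were 3 assembly chaperones that carry a Psmd symbol (Psmd5, Psmd9 and Psmd10) and 4 genes of proteasome activators (Psme1 to Psme4). The organoids were wild-type, and the labels give no strain, sex or age. One group of 3 libraries received T3, the active thyroid hormone, at 1e-07 M for 17 h, and the other group of 3 received the vehicle for the same time. All were grown in Matrigel in the same medium. Organoids of this kind are epithelium grown without the tissue around it. The labels do not say whether the 3 libraries of a group came from separate mice or cultures, so p-values cover only the spread among these libraries, and that spread may be technical.

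The proteasome is the protease that degrades most short-lived and damaged proteins of the cell once they are tagged with ubiquitin. Its core particle is a barrel of stacked rings, with outer alpha rings that gate the entrance and inner beta rings that hold the active sites. The regulatory particle caps the barrel: its base of ATPases unfolds the substrate and threads it in, and its lid removes the ubiquitin. Activators such as the PA28 ring can take the place of the cap and open the gate without ATP. In epithelium exposed to interferon, the catalytic beta subunits can be exchanged for the immunoproteasome subunits, which changes the peptides made for antigen presentation.

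Column totals were 28197080 to 28611883 normalized reads with vehicle and 29510422 to 29974091 with T3. Each level below is in normalized reads, which are reads per gene scaled between libraries by the authors. Changes are log2 fold changes on the log2(value + 1) scale from limma, with standard errors (SE), and a gene was called at a Benjamini-Hochberg adjusted p under 0.05 over the 13052 genes tested. The epithelial markers were present, from Epcam at 39050 ± 402 to the tuft cell marker Dclk1 at 85.3 ± 21.4 with vehicle (SD, n = 3). The 12 epithelial markers summed to 132535 to 136771 with vehicle and to 150626 to 159817 with T3, and 5 were called higher and 1 lower. Over all genes tested the shares called were 24.0% and 20.8%. Vil1, of the brush border, went from 17116 ± 719 to 26689 ± 764, and Lgr5, of the stem cell, from 4506 ± 514 to 2073 ± 406. The markers did not move as one: 7 of the 12 estimates were above 0 and 5 below, and 6 markers were not called. Among the uncalled, Fabp1 went from 8672 ± 592 to 7327 ± 1209 and Muc2 from 2668 ± 97.0 to 2357 ± 282. The part of such shifts in the changes of proteasome genes was not tested, and in bulk RNA more cells of a type and more RNA per cell cannot be told apart. The 13 markers of blood, stromal, endothelial, muscle and neural cells summed to 342 to 411 with vehicle and 258 to 354 with T3, and Cdh5 and Hbb-bs were at 0 in every library. Of the 4 of them tested, 0 were called by limma, 0 had an unadjusted p under 0.05 and 0 were called in the authors' deposited table.

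With T3 18 proteasome genes rose, 16 of them by 1.22-fold or less, and the genes of the PA28 activator doubled. Of the 40 genes, 38 passed the filter of 10 normalized reads in at least 3 libraries, and 18 of these were called higher and 1 lower. Over all genes tested 24.0% were called higher and 20.8% lower. The median log2 fold change was 0.09 over the 38 genes and -0.01 over all genes tested. The point estimate was above 0 in 34 of the 38, and the T3 libraries lay above every vehicle library in 22, a pattern seen in 28.4% of all genes tested. The opposite pattern was found in 2 members and in 26.5% of all genes. Apart from Psme1 and Psme2 the largest of the 38 estimates was that of Psmd8, at 1.22-fold.

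**Figure D1:**
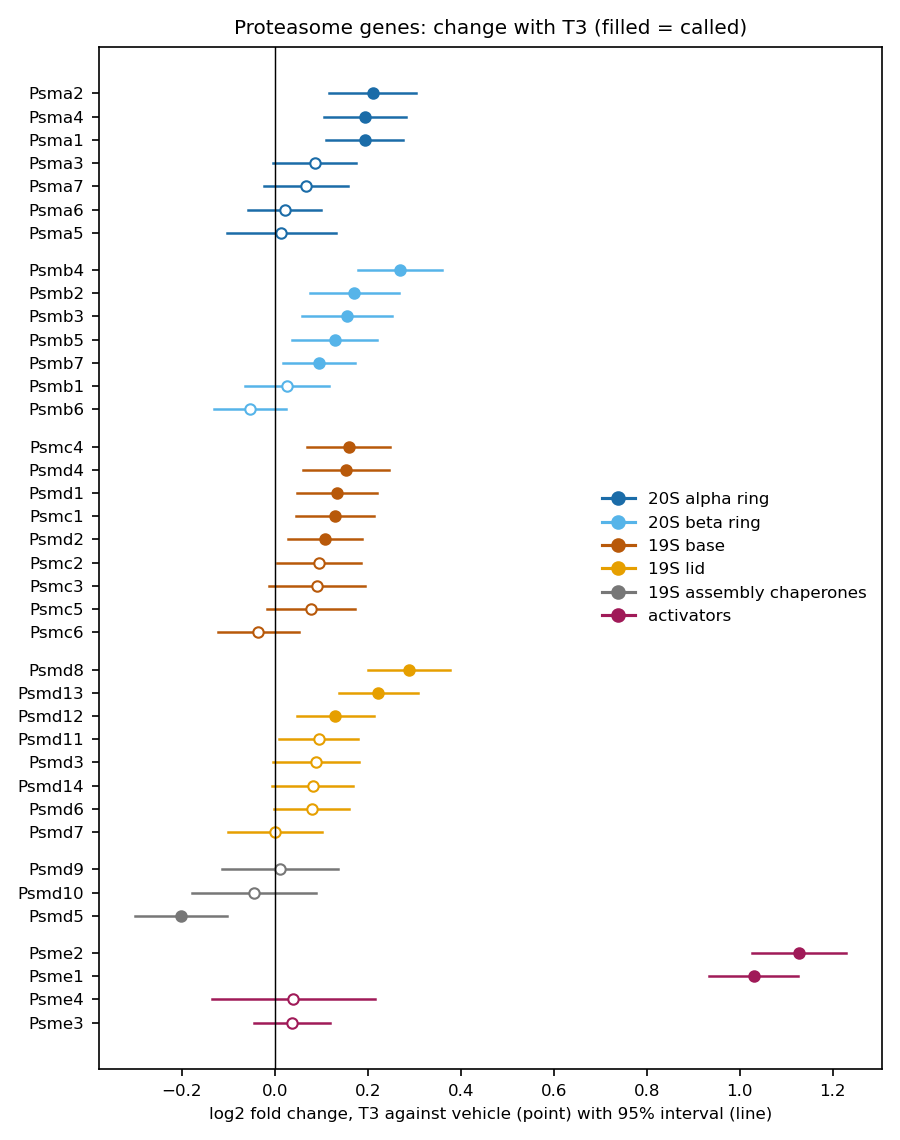
Log2 fold change of each of the 38 tested proteasome genes with T3 against vehicle (points, filled where called) with its 95% interval (lines), grouped and coloured by role. Psme2 and Psme1 stand near 1, while all other points lie between -0.20 and 0.29.

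The calls of many of these small rises depended on the scaling and on single libraries. With upper-quartile scaling 9 of the 38 tested members were called higher and 2 lower, and with equal column totals 8 and 2. Over all genes the shares became 20.1% higher and 26.7% lower with the first and 18.7% and 29.7% with the second. The members called higher were then close to the share of all genes, and Psme1 and Psme2 were among them in both cases. With these 2 scalings the estimates of Psma5, Psma6, Psmb1, Psmd7, Psmd9, Psme3 and Psme4, all uncalled, turned negative. Without vehicle replicate 2, or without T3 replicate 1, the count of members called higher was 11. The share of all genes was not computed for the sets without a library. An estimate could stay while its call was lost, as for Psmd4. Its log2 fold change was 0.153 both as reported and without T3 replicate 1. The calls of 8 higher members (Psma1, Psma2, Psma4, Psmb4, Psmd8, Psmd13, Psme1 and Psme2) and of the lower member Psmd5 were kept in all 18 alternatives, and those of the other 10 higher members were lost in at least 1. The authors' deposited table called 14 of the members higher at the same threshold, where it called 19.3% of its genes higher.

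**Figure D2:**
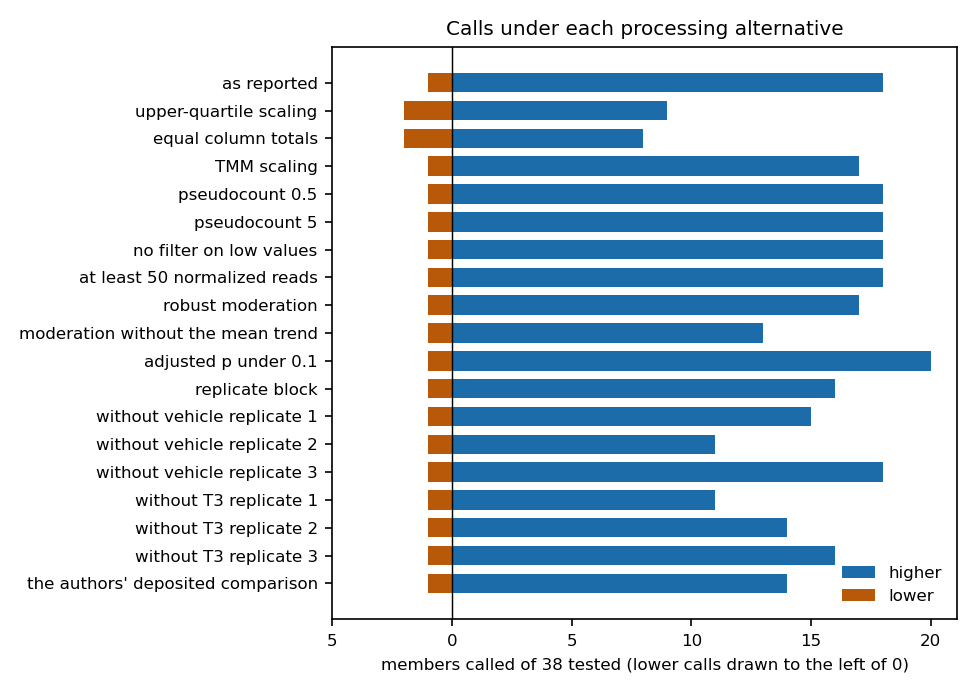
Number of the 38 tested members called higher (bars to the right of 0) and lower (bars to the left of 0) as reported and under each of 18 alternatives. The higher count runs from 8 with equal column totals to 20 at an adjusted p under 0.1.

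In the alpha ring, which recognises the caps and gates the channel, 3 of 7 tested genes (42.9%) were called higher and 0 lower. Over all genes tested 24.0% were called higher. The median log2 fold change was 0.09. Psma2 (gene ID 19166, mm10 chromosome 13, 14613242 to 14625673, 8 exons) stood at 4327, 4603 and 4406 with vehicle and at 5315, 4978 and 5140 with T3. Its groups did not overlap, and the log2 fold change was 0.21 ± 0.04 SE (limma adjusted p = 0.00253). Psma4 went from 3898, 3960 and 4044 to 4517, 4406 and 4700, a rise of 14.4%. Psma1 went from 5143, 5238 and 5128 to 5947, 5744 and 6043, a rise of 14.3%. Both rose with no overlap of the groups, like Psma2.

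The other alpha genes were not called. Psma3 was at 2404, 2496 and 2401 with vehicle and at 2611, 2515 and 2623 with T3, so that every T3 library lay above the vehicle libraries, but the 95% interval of the log2 fold change (-0.003 to 0.17) included 0. Psma7, Psma6 and Psma5 had overlapping groups, with log2 fold changes of 0.07, 0.02 and 0.01. The interval for Psma6, -0.06 to 0.10, lay below the estimate for Psma2. Psma8, known as the alpha subunit of the testis, was at 0 to 5 in all libraries and was not tested. Subunits that share a ring in equal numbers thus had transcript estimates from 0.01 to 0.21, and the differences between these genes were not tested.

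In the beta ring 5 of 7 tested genes (71.4%) were called higher and 0 lower, where 24.0% of all genes tested were called higher. The median log2 fold change was 0.13. The largest rise was that of Psmb4, a subunit without an active site (gene ID 19172, chromosome 3, 94884324 to 94886958, 7 exons). It stood at 4892, 4729 and 5093 with vehicle and at 5947, 5782 and 6008 with T3, with a log2 fold change of 0.27 ± 0.04 SE (limma adjusted p = 0.000475). Psmb2 and Psmb3, also structural, were 12.6% and 11.4% higher. The call of Psmb2 was lost with equal column totals (adjusted p = 0.0644), and that of Psmb3 without T3 replicate 2 and under the same 2 scalings as above. Psmb1, also structural and with vehicle the core gene of the highest level per kb, was at 5980, 5923 and 6393 with vehicle, against 6275, 6186 and 6165 with T3, and its groups overlapped.

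Of the 3 catalytic subunits 2 were called higher, where 24.0% of all genes tested were. Psmb5, which carries the chymotrypsin-like site, went from 2341, 2322 and 2481 to 2606, 2600 and 2602 (limma adjusted p = 0.0268). Psmb7, which carries the trypsin-like site, went from 4023, 3993 and 4063 to 4302, 4254 and 4353 (limma adjusted p = 0.0459). Both rises were under 10%, and their calls were lost in 8 and 13 of the 18 alternatives, among them equal column totals and upper-quartile scaling. Psmb5 lost its call without vehicle replicate 1 or 2 and without T3 replicate 1 or 2, and Psmb7 without any of the 6 libraries. Psmb6, which carries the caspase-like site (gene ID 19175, chromosome 11, 70525357 to 70527858), was at 3794, 3788 and 3856 with vehicle and at 3717, 3646 and 3662 with T3. Every T3 library was below the vehicle libraries, the log2 fold change was -0.05 ± 0.03 SE, and the gene was not called (adjusted p = 0.245). It was called lower with upper-quartile scaling (adjusted p = 0.0450) and under equal column totals (adjusted p = 0.0184). Psmb11, the thymus-specific relative of Psmb5, was listed at 0 in all 6 libraries.

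Promoter sequences, from 250 bases before to 50 after the start given by RefSeq, were matched for 33 of the 40 genes on GRCm38.p6. That start can differ from the start of the gene model that was counted. The Psma6 promoter begins at base 55383972 of chromosome 12, while the counted gene begins at 55398825. Those of Psma8, Psmb1, Psmb2, Psmb7, Psmc3, Psmd3 and Psmd7 were not matched. Each motif was searched on both strands. The core of the element bound by Nfe2l1 and its relatives, TGACNNNGC, was in 18.2% of member promoters (6 of 33) and in 3781 of all 27025 promoters. Its AP-1 variant TGAGTCA was in 3.03% and 5.95%, CCAAT in 39.4% and 41.1%, and TATAAA in 9.09% and 15.7%. The GC box GGGCGG was in 63.6% and 38.2%. The comparison set was not limited to genes that passed the filter here: 13052 of the 27179 genes listed passed it, against 38 of the 40 members. Shares among the genes tested alone were not computed. In Psmd9 a TGACNNNGC match shared bases with a GGGCGG match.

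Windows of 29 bases around TGACNNNGC are shown for 2 catalytic subunits whose estimates differ in sign, with the match in capitals:

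Psmb5: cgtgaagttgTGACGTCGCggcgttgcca

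Psmb6: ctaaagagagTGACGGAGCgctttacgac

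The Psmb5 window lies at chr14:54618024-54618052 (GRCm38.p6) on the minus strand, and the match starts 47 bases before the start of the gene. The Psmb6 window lies at chr11:70525338-70525366 on the plus strand, and the match starts 9 bases before the start. The presence of the letters in both genes, of which 1 rose and the other was not called, is a description of the sequence alone.

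The immunoproteasome counterparts of these subunits changed by much more. Psmb8, which replaces Psmb5, stood at 134, 110 and 135 with vehicle and at 995, 870 and 879 with T3, Psmb9, which replaces Psmb6, rose 3.56-fold, and Psmb10, which replaces Psmb7, rose 3.33-fold. Per kb of exon, the level of Psmb10 was 0.268 ± 0.00947 of that of Psmb7 with vehicle and 0.835 ± 0.0205 with T3 (SD, n = 3). The ratio of Psmb8 to Psmb5 went from 0.0378 ± 0.00362 to 0.250 ± 0.0188 and that of Psmb9 to Psmb6 from 0.0430 ± 0.00607 to 0.159 ± 0.00617. The constitutive transcript therefore stood above its inducible counterpart in each of the 3 pairs in every library, also after T3.

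**Figure D3:**
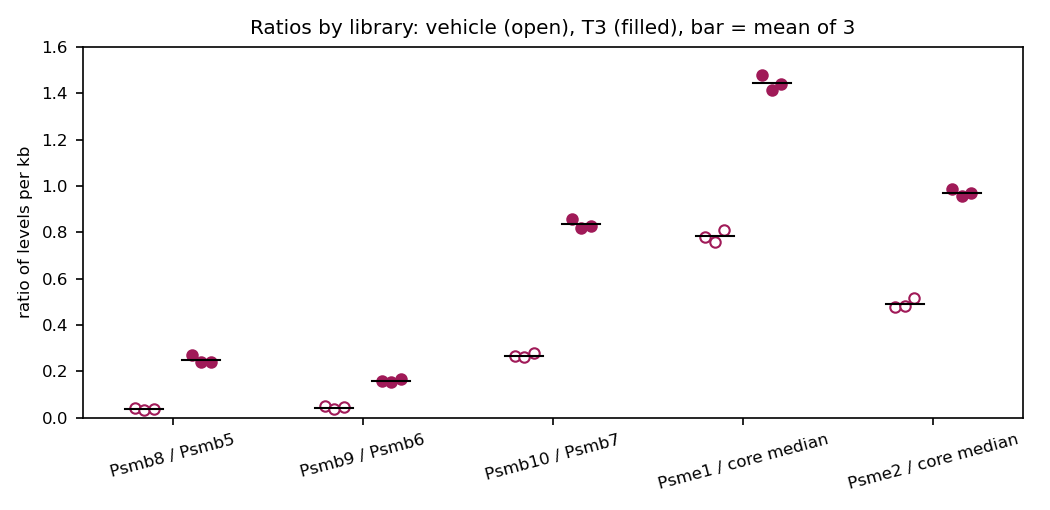
Ratio of levels per kb of exon in each library, for 3 immunoproteasome subunits over their constitutive counterparts and for Psme1 and Psme2 over the median of the 14 tested core genes (open points, vehicle; filled points, T3; bars, means of 3). Every T3 point lies above every vehicle point of its ratio.

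In the base of the regulatory particle 5 of 9 genes (55.6%) were called higher and 0 lower. The median log2 fold change was 0.11, and 24.0% of all genes tested were called higher. Among the ATPases, Psmc4 stood at 3497, 3699 and 3742 with vehicle and at 4090, 3992 and 4124 with T3 (log2 fold change 0.16 ± 0.04 SE, limma adjusted p = 0.00953). Psmc1 was 9.39% higher, and Psmc2, Psmc3 and Psmc5 had log2 fold changes of 0.09, 0.09 and 0.08 without a call. Psmc6 was at 5479, 5380 and 5144 with vehicle and at 5114, 5207 and 5293 with T3, with overlapping groups. Of the non-ATPase subunits, the scaffold Psmd1 was 9.71% higher, and Psmd2, the scaffold that docks ubiquitin shuttles, went from 8996, 9003 and 9258 to 9879, 9630 and 9877. The ubiquitin receptor Psmd4 was 11.2% higher. The calls of all 5 base genes were lost with equal column totals. Those of Psmc1, Psmd1 and Psmd4 were also lost without vehicle replicate 2 or T3 replicate 1, and that of Psmd2 without any single library other than vehicle replicate 3.

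In the lid 3 of 8 genes (37.5%) were called higher and 0 lower, where 24.0% of all genes tested were called higher. The median log2 fold change was 0.09. Psmd8 (gene ID 57296, chromosome 7, 29174187 to 29180673, 7 exons), a lid subunit that completes lid assembly, stood at 3363, 3528 and 3574 with vehicle and at 4292, 4160 and 4327 with T3. The lowest T3 library exceeded the highest vehicle library, and the log2 fold change was 0.29 ± 0.04 SE (limma adjusted p = 0.000285). Psmd13 (gene ID 23997, chromosome 7, 140882394 to 140898642) went from 3122, 3104 and 3245 to 3757, 3607 and 3690, a rise of 16.7%. Psmd12 was 9.47% higher, a call lost with upper-quartile scaling or equal column totals, without vehicle replicate 2 or T3 replicate 1, and in the authors' deposited table. Psmd14, the deubiquitinase of the lid, was at 4320, 4269 and 4208 with vehicle, against 4527, 4349 and 4668 with T3, and it was not called (adjusted p = 0.12). Its partner Psmd7 had a log2 fold change of 0.00 with a 95% interval of -0.10 to 0.10. Psmd3, Psmd6 and Psmd11 had log2 fold changes of 0.08 to 0.09 without a call. Exons of Psmd3 overlap those of Gm12356 on the opposite strand over 17.9% of their length, and that gene had a mean of 55.3.

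Compared as particles, core and cap differed in their change by less than the spread of libraries. In the core particle 8 of 14 tested genes (57.1%) were called higher, and in the regulatory particle 8 of 17 (47.1%), where 24.0% of all genes tested were. The median log2 fold changes of the particles were 0.11 and 0.09. No gene of either was called lower by limma, none had an unadjusted p under 0.05 in that direction, and the authors' deposited table called 0 lower. The mean log2 level of the core genes minus that of the regulatory genes was -0.177, -0.174 and -0.179 in the vehicle libraries and -0.176, -0.163 and -0.186 in the T3 libraries. The T3 values lay on both sides of the vehicle values, and the difference of the group means was 0.0013. This difference is the same under any scaling of whole libraries, whereas the counts are not. With upper-quartile scaling 5 of 14 core and 2 of 17 regulatory genes were called higher and 1 core gene lower. With equal column totals they were 4, 2 and 1. Of all genes, 20.1% were called higher with the first scaling and 18.7% with the second, and the regulatory count of 2 of 17 lay below both shares. Without vehicle replicate 2 or T3 replicate 1 the count for the regulatory particle was 3, and without T3 replicate 2 the count for the core was 5.

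**Figure D4:**
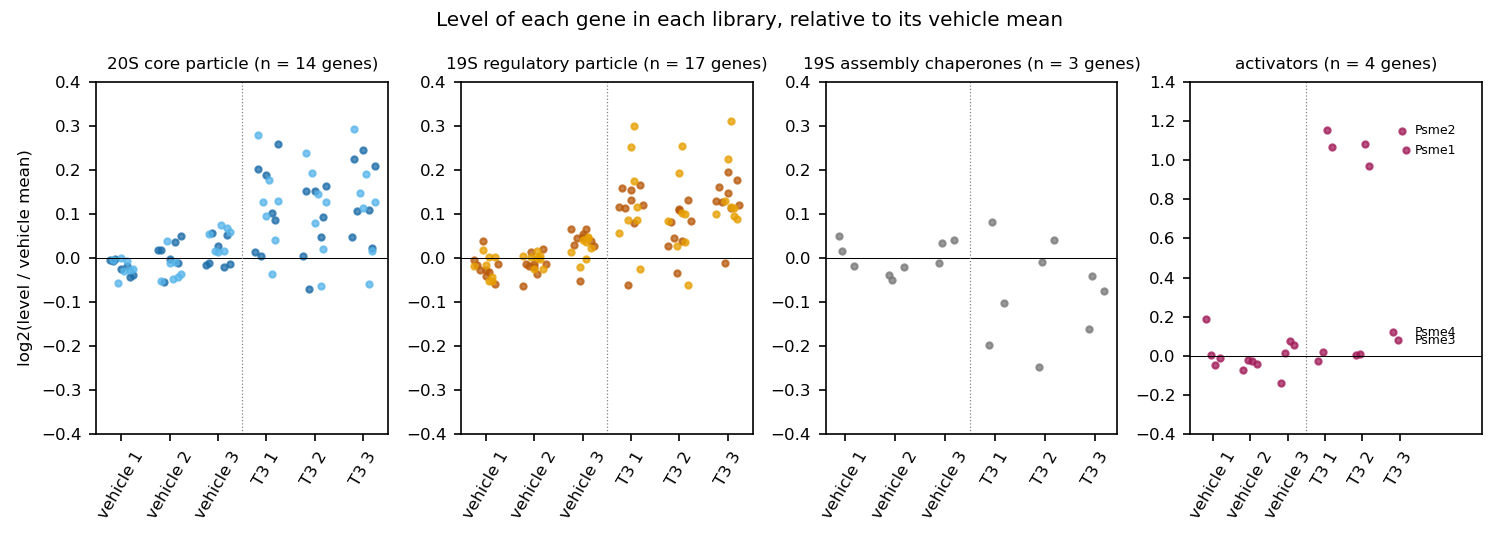
Level of each tested gene in each library as log2 of its ratio to the gene's vehicle mean (points; dark and light blue, alpha and beta ring; dark and light orange, base and lid; grey, chaperones; purple, activators on a wider axis). Core and cap genes overlap in both groups, and in T3 libraries only Psme1 and Psme2 lie above 0.4.

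As a share of all normalized reads, the core genes made up 0.191% to 0.197% with vehicle and 0.198% to 0.205% with T3. The regulatory genes made up 0.263% to 0.272% and 0.268% to 0.283%, with overlapping groups. All members apart from Psme1 and Psme2 held 0.526% ± 0.00557 of the vehicle total and 0.539% ± 0.0136 of the T3 total (SD, n = 3), and T3 replicate 2, at 0.526%, lay within the range of the vehicle libraries. Vehicle replicate 3 was the highest vehicle library for 28 of the 38 tested genes, and T3 replicate 2 was the lowest T3 library for 29. Values of different members were thus not independent across the libraries of a group.

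Per kb of exon, core transcripts stood above those of the regulatory particle by their median, while the ranges of the genes overlapped. The median with vehicle was 4137 normalized reads per kb over the 14 core genes and 2555 over the 17 regulatory genes, and with T3 the medians were 4575 and 2833. Core genes ranged from Psma3 at 1697 ± 37.7 to Psmb1 at 5887 ± 248 with vehicle (SD, n = 3), a 3.47-fold span. The 17 regulatory genes spanned 1.94-fold, from Psmd12 at 1813 ± 2.20 to Psmc5 at 3520 ± 142. The median coefficient of variation over vehicle libraries was 3.28% for core and 2.93% for regulatory genes. Neighbours in the order such as Psma2 at 4699 ± 150 and Psma6 at 4694 ± 57.1 did not differ beyond their spread. Exon length here is that of all exons of the gene model and need not equal the length of the transcript made.

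**Figure D5:**
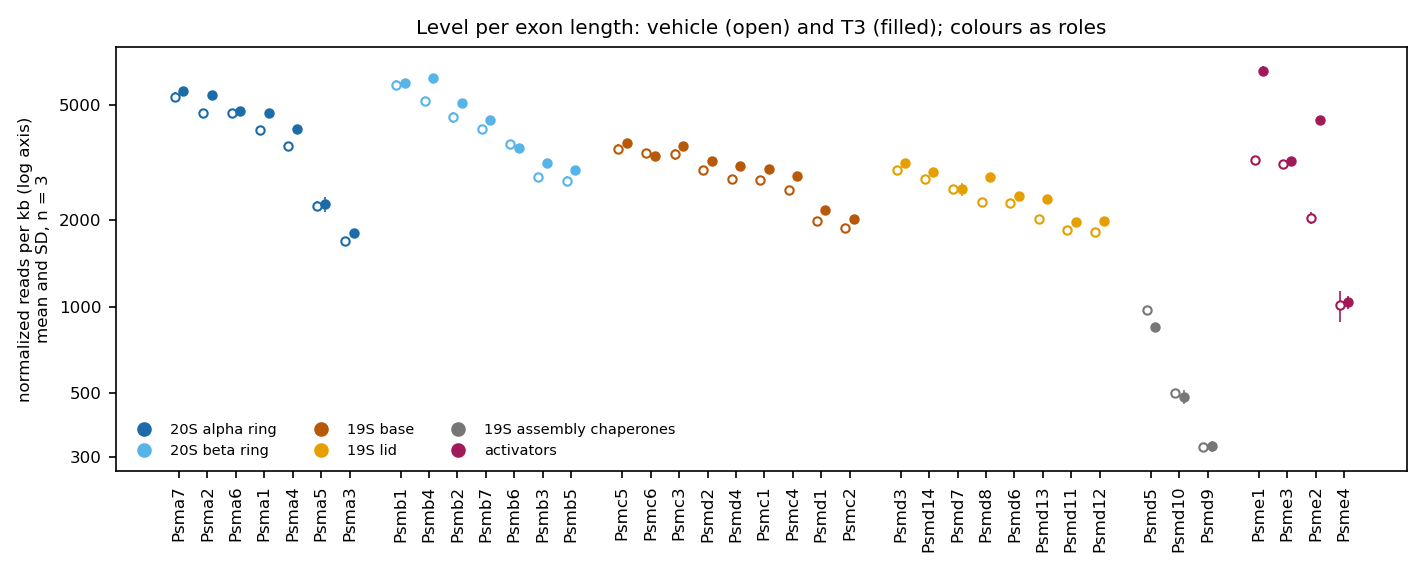
Normalized reads per kb of exon for the 38 tested genes on a log axis (open points, vehicle mean; filled points, T3 mean; lines, SD of 3 libraries), grouped by role and ordered by the vehicle level. The chaperones lie lowest, from 325 to 975 with vehicle, and Psme1 with T3, at 6607, is the highest point.

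The activators split into 2 genes that doubled and 2 that were not called. Psme1 and Psme2 encode the alternating subunits of the PA28 ring, which is known to be induced by interferon gamma. Psme1 (gene ID 19186, chromosome 14, 55578494 to 55581527, plus strand, 11 exons) stood at 3135, 3067 and 3280 with vehicle and at 6626, 6197 and 6543 with T3. The lowest T3 library was far above the highest vehicle library, and the gene rose 2.04-fold (log2 1.03 ± 0.04 SE, limma adjusted p = 1.16e-07). Psme2 (gene ID 19188, chromosome 14, 55587440 to 55591101, minus strand, 11 exons) stood at 1921, 1949 and 2091 with vehicle and at 4423, 4199 and 4403 with T3. It rose 2.19-fold (log2 1.13 ± 0.05 SE, limma adjusted p = 9.32e-08). They were the 2 members called at least 2-fold higher, where 3.45% of all genes tested were. Psme1 lay just under 2-fold with upper-quartile scaling (log2 0.984) and with equal column totals (log2 0.964), and its call was kept in both.

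The PA28 genes lie 5912 bases apart with their ends facing each other. Per kb, Psme1 was at 0.782 ± 0.0273 of the core median with vehicle and at 1.44 ± 0.0318 with T3, and Psme2 went from 0.492 ± 0.0221 to 0.971 ± 0.0141 (SD, n = 3). The ratio of Psme1 to Psme2 per kb was 1.59 ± 0.0352 with vehicle and 1.49 ± 0.0111 with T3, without overlap of the libraries. Psme1 shares 4 exonic bases with Emc9 on the opposite strand, a gene with a mean of 63.5 normalized reads over the 6 libraries.

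Another motif, GAAA repeated after any 2 bases, is the core of the element bound by interferon regulatory factors. It was searched after the values of Psme1 and Psme2 were seen. It was in 12.1% of matched members (Psmb3, Psmd4, Psmd9 and Psme1) and in 3.99% of all genes with a promoter. It is shown for Psme1, the strongly raised member that holds it, where it reads on the opposite strand:

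Psme1: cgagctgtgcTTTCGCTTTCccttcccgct

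This window of 30 bases lies at chr14:55578493-55578522 (GRCm38.p6) on the plus strand, and the match starts at base 10 after the start of the gene. The motif was not found in the promoter windows of Psme2.

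Psme3, which forms a separate PA28 ring in the nucleus, was at 8220, 8094 and 8297 with vehicle and at 8310, 8271 and 8673 with T3. Its log2 fold change had a 95% interval of -0.05 to 0.12, which excludes a rise like that of Psme1. Psme4, the large PA200 activator of the nucleus, varied more between libraries, at 7415, 6189 and 5904 with vehicle and 6391, 6523 and 7068 with T3, and its interval was -0.14 to 0.22. Neither gene was called, and both estimates changed sign with the scaling.

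The chaperones that build the base bind single ATPases and are absent from the finished particle. Psmd5 (gene ID 66998, chromosome 2, 34852089 to 34870962, 10 exons) was the one member called lower, from 2060, 1936 and 1974 to 1736, 1675 and 1780. The groups did not overlap, and the log2 level fell by 0.20 ± 0.04 SE (limma adjusted p = 0.00483). Psmd9 was at 813 to 863 with vehicle and 819 to 891 with T3, and Psmd10, also known as gankyrin, at 719 to 750 and 680 to 751, both with overlapping groups. The other assembly factors, counted with the nuclear import factor Akirin2, went both ways. Of the 6 tested 3 were called higher and 2 lower, where 24.0% and 20.8% of all genes tested were. Psmg1, which with Psmg2 starts the alpha ring, fell from 1234, 1212 and 1260 to 968, 974 and 1003 (log2 -0.33 ± 0.05 SE, limma adjusted p = 0.000297). Psmg2 had a log2 fold change of -0.20 ± 0.06 SE and lost its call under 5 alternatives, among them those without vehicle replicate 2 or 3 and without T3 replicate 1 or 2. Pomp, which matures the half-built core, rose 13.4%, from 2824, 2781 and 2952 to 3236, 3193 and 3274. Akirin2, which carries proteasomes into the nucleus, rose 14.8%, and Psmg4 rose 17.6%, from 413, 431 and 430 to 493, 505 and 501, a call lost with equal column totals and in the authors' deposited table.

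Subunits of the cap without a Psm symbol and enzymes bound to it were examined as well. Of 9 tested 1 was called lower and 0 higher by limma, against 20.8% and 24.0% of all genes tested. Among the higher ones 1 had an unadjusted p under 0.05, and the authors' deposited table called 0 higher. Txnl1, a thioredoxin of the cap, fell by 8.33%, a call lost under 4 alternatives, among them the fits without vehicle replicate 1, vehicle replicate 2 or T3 replicate 2. The ubiquitin receptor Adrm1, given outside the naming rule, was at 1517, 1628 and 1711 with vehicle, against 1887, 1660 and 1855 with T3, and it was not called (adjusted p = 0.074).

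Of 7 genes that control transcription of the proteasome 3 were called higher and 1 lower, where 24.0% and 20.8% of all genes tested were. Nfe2l1, the factor that raises proteasome genes when proteasome activity is low, stood at 4501, 4564 and 4642 with vehicle and at 5361, 5694 and 4927 with T3. It rose 1.16-fold (limma adjusted p = 0.00703), with T3 replicate 3 the lowest T3 library. Nfyc, a subunit of the factor that binds CCAAT, was 13.7% higher, a call lost with equal column totals, and Nfe2l2 was 9.95% higher, a call lost with both scalings and without vehicle replicate 2, T3 replicate 1 or T3 replicate 2. Ddi2, the protease that activates Nfe2l1, fell by 10.9%, a call lost under 4 alternatives, among them those without vehicle replicate 1 and without T3 replicate 1.

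Of all genes tested 20.8% were called lower, and of 6 ubiquitin and E1 genes 2 were. The calls of these genes, Rps27a and Uba6, were lost under 4 and 5 alternatives, in both cases without T3 replicate 1 or T3 replicate 2, and without vehicle replicate 3 for Rps27a and vehicle replicate 1 for Uba6. Of 9 shuttle and unfoldase genes 1 was called higher and 3 lower, against shares of 24.0% and 20.8% over all genes tested. Nploc4, a cofactor of the unfoldase, was 16.0% higher, the shuttle Ubqln4 had a log2 fold change of -0.20 ± 0.04 SE and the shuttle Rad23b one of -0.13 ± 0.04 SE. The Rad23b call was lost under 4 alternatives, among them those without vehicle replicate 2, T3 replicate 1 or T3 replicate 2.

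Complexes of similar build or size are set beside the proteasome. Of all genes tested, 24.0% were called higher and 20.8% lower. The COP9 signalosome is built like the lid, and 1 of its 9 genes was called higher and 2 lower, with a median log2 fold change of -0.07. Its called genes were Cops8 at 0.14 ± 0.04 SE and Cops4 and Cops7b at -0.18 ± 0.05 and -0.25 ± 0.09, and each lost its call without at least 2 of the 6 libraries, vehicle replicate 3 among them. For eIF3, a translation factor with the same kind of scaffold, 0 of 13 were called higher by limma, 0 had an unadjusted p under 0.05 among the higher ones, 0 were called higher in the authors' deposited table and 7 were called lower, with a median of -0.12. For the chaperonin CCT 0 of 8 were called higher, also at an unadjusted p under 0.05 and in the authors' deposited table, and 1 was called lower, with a median of -0.08. Eif3l and Eif3i fell by 9.90% and 10.0%. Other examples were Eif3f, lower from 15250 ± 591 to 13464 ± 291, and Cct4, lower from 14369 ± 201 to 12195 ± 430 (SD, n = 3). Called lower were 22.2% of the COP9 genes, 53.8% of the eIF3 genes and 12.5% of the CCT genes. The difference between these lists and the proteasome genes was not tested. Over all 70 related genes tested, 12 were called higher and 19 lower, while the counts were 10 and 28 by upper-quartile scaling and 8 and 30 by equal column totals. As reported, 17.1% of the 70 were called higher and 27.1% lower. Over all genes the shares were 20.1% higher and 26.7% lower with upper-quartile scaling, and 18.7% and 29.7% with equal column totals. The lower count of related genes was 11 without vehicle replicate 2, 9 without T3 replicate 1 and 8 without T3 replicate 2. The share of all genes was not computed for these sets.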

How the data were processed

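RNA of 3 vehicle and 3 T3 organoid libraries was sequenced from directional libraries, per the labels' protocols. The tools listed in the submitters' processing notes are STAR, Subread and DESeq2, with no version. The strand setting used was not given in the sources used here. Reads per gene were scaled between libraries by the authors and deposited as whole numbers, so each sample column is a normalized score on mm10, per the file headers. The deposited mean equals the mean of the 6 columns within 0.833. The authors also deposited their own comparison with log2 fold changes and p-values.

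Values were compared with limma 3.58.1 in R 4.3.3 (statmod 1.5.0 for robust moderation) on log2(value + 1), with moderation along the mean trend and no replicate block. Genes entered where 3 or more of the 6 libraries reached 10 normalized reads. The method was tested on simulated data with the same dispersion setting for all genes and no shift between libraries. That test therefore cannot show how calls depend on scaling or on single libraries. Library totals of original reads are unknown, and no count model was used.

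Members, gene lists and the naming rule were chosen with earlier results of these data known. The rule named all members, Psmb8, Psmb9, Psmb10, Nfe2l1, Pomp, up to 3 called genes with the smallest p per related list (or the 2 highest where none was called) and the highest and lowest epithelial marker. Vil1, Lgr5, Fabp1, Muc2, Psmg2, Psmg4, Adrm1 and Ddi2 were named outside it, after their values were seen. Paaf1 was not analysed here. A further gene named by the rule is not reported here. Alternatives covered scaling, pseudocount, filter, variance model, threshold, the authors' comparison, a replicate block and each library left out. Reads shared with processed copies of proteasome genes could have been split or lost in counting.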

Additional observations from a re-analysis of the deposited data

How the results depend on the processing

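The count of members called higher, 18, was 9 with upper-quartile scaling, 8 with equal column totals, and 11 to 18 when 1 library was left out. That of members called lower, 1, was 2 with either scaling, the added gene being Psmb6, and 1 in every set without a library. Core genes called higher, 8, were 5 and 4 with these scalings and 5 to 7 without a library, and 1 core gene was lower with each. Regulatory genes called higher, 8, were 2 and 2 with these scalings, 5 without the mean trend and 3 to 9 without a library. Over all genes 24.0% were called higher as reported, and 20.1% and 18.7% with these scalings. Shares over all genes were not computed for the sets without a library. With chaperones and activators counted in, 1 of the Psmc, Psmd and Psme genes was lower, and the difference of core against regulatory particle was -0.0494 in place of 0.0013. Related genes called lower, 19, were 30 with equal column totals, 7 without the mean trend and 8 to 20 without a library. Of all genes, 20.8% were called lower as reported and 29.7% with equal column totals. The scalings differ from the reported values only by a factor per library. For the other changes the cause was not tested.

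The numbers shared by libraries of the 2 groups did not pair them: the correlations of deviations for numbers 1 to 3 were -0.0701, 0.0278 and -0.0568. With a replicate block 16 members were called higher and 1 lower.

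Genes near 0 changed sign, none of them called. With upper-quartile scaling, then with equal column totals, the log2 values were -0.0315 and -0.0518 for Psma5, -0.0244 and -0.0447 for Psma6, -0.0194 and -0.0397 for Psmb1, -0.0452 and -0.0655 for Psmd7, -0.0350 and -0.0553 for Psmd9, -0.00901 and -0.0293 for Psme3, and -0.00562 and -0.0259 for Psme4. TMM scaling gave -0.0105 for Psmd7 and -0.000324 for Psmd9. Without a library the range was -0.0316 to 0.0564 for Psma5, -0.0429 to 0.0317 for Psmd7, -0.0244 to 0.0364 for Psmd9 and -0.0258 to 0.139 for Psme4.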
